A study of Mus musculus with 12 samples.

Results

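The genes described here are 28 genes of cholesterol synthesis and its control by the transcription factor SREBP2, taken by symbol from a table of 56691 genes. They comprise 9 enzymes of the early steps from acetyl-CoA to squalene, 11 enzymes of the late steps from squalene to cholesterol, and 8 genes of SREBP2 control, uptake and efflux. A filter on low counts kept 26 of them, with Idi1 and Tm7sf2 below it. The cells were MC3T3-E1, a wild-type mouse pre-osteoblast line from calvarial bone, kept in osteogenic medium for 28 days. That medium, shared by every group, held the glucocorticoid dexamethasone at 0.1 µM, ascorbic acid at 50 µg/ml and, as a source of phosphate, beta-glycerophosphate (BGP) at 10 mM. For the last 24 h, from day 27, cells received 25(OH)D at 100 µM with ZK191784 at 100 µM, the same 25(OH)D with another 4 mM of BGP, or the same 25(OH)D alone, and control cells were given none of these. 25(OH)D is 25-hydroxyvitamin D, the circulating precursor of the active hormone, and ZK191784 is a synthetic ligand of the vitamin D receptor. The doses are as labelled, and the units of the 25(OH)D and ZK191784 doses could not be checked and may be a slip for a much smaller unit. Each group had 3 libraries of 3' mRNA sequencing.

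Cholesterol is built from acetyl-CoA through mevalonate and squalene, and most enzymes of the route are transcribed under SREBP2. SREBP2 is held in the endoplasmic reticulum with its escort SCAP by the INSIG proteins while sterols are plentiful, and is released for cleavage when they are scarce. DHCR7 reduces 7-dehydrocholesterol to cholesterol, and in skin the same 7-dehydrocholesterol is the starting material of vitamin D3. Insig2 is a known target of the vitamin D receptor in mouse adipocytes.

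Depth ran from 3318723 to 5170980 deposited counts a library. Separate cultures are not named in the labels, and all p-values therefore rest on the spread between libraries, which may be technical. All 6 osteoblast markers listed (Runx2, Sp7, Alpl, Bglap, Col1a1 and Ibsp) were detected, and their summed level in TMM-scaled CPM (a library's counts for a gene relative to its scaled total) was 17600 to 25200 with ZK191784, 4990 to 6090 with BGP, 4790 to 7770 with 25(OH)D alone and 33400 to 54100 in control. In such bulk RNA, fewer cells of a type and less RNA per cell cannot be told apart. Of other cell types' markers, the 5 of adipocytes summed to at most 9.04 CPM in any library and the 3 of skeletal muscle to at most 0.964 CPM, with Myog at 0 throughout. The 3 endothelial markers, with Cdh5 at 0 throughout, summed to 24.8 to 55.9 CPM with ZK191784, 22.1 to 47.4 with BGP, 16.8 to 41.2 with 25(OH)D and 25.9 to 61.6 in control. The 4 macrophage markers summed to 174 to 344 CPM with ZK191784, 153 to 335 with BGP, 160 to 313 with 25(OH)D and 183 to 399 in control. The 4 chondrocyte markers summed to 86.5 to 181 CPM with ZK191784, 63.7 to 119 with BGP, 67.4 to 150 with 25(OH)D and 100 to 244 in control. A sum does not show which of its markers carries it, and the part of these marker levels in the results was not tested. Libraries within each group also differed in a log2 ratio, that of counts in ribosomal protein genes to counts in their pseudogenes and predicted genes, by group from −1.56 to −0.78 with ZK191784, −1.63 to −0.44 with BGP, −1.72 to −0.44 with 25(OH)D and −1.75 to −0.58 in control. The library with the highest ratio was also the highest of its group for 46.2% of tested members with ZK191784, 46.2% with BGP, 50% with 25(OH)D and 53.8% in control, against 41.8, 43.6, 38.3 and 41.1% of all genes in those groups.

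Promoter windows from 250 bases before to 50 bases after a gene's start were taken from RefSeq (GRCm38.p6). There, 23 of the 28 members had an entry, and Fdps, Fdft1, Sqle, Stard4 and Npc1 had none. Those printed are the windows of the 3 members with the largest rises and of 2 early enzymes, Hmgcs1 with the only sterol response element found and Mvd with the largest called fall. They are Dhcr7 at the last of its 3 listed starts (chr7:143829964-143830263, plus strand), Hsd17b7 (chr1:169969156-169969455, minus strand), Insig2 at its first listed start (chr1:121332540-121332839, minus strand), Hmgcs1 (chr13:119690101-119690400, plus strand) and Mvd (chr8:122443373-122443672, minus strand). Capitals mark TCACNCCAC, the core of a sterol response element, and CCAAT, the NF-Y box, on either strand.
Dhcr7: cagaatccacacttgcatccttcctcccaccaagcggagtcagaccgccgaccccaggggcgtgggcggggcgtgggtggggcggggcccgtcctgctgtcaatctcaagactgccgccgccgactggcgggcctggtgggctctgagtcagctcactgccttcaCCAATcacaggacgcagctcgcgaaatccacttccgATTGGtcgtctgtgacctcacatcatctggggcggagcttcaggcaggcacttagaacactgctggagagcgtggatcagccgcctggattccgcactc
Hsd17b7: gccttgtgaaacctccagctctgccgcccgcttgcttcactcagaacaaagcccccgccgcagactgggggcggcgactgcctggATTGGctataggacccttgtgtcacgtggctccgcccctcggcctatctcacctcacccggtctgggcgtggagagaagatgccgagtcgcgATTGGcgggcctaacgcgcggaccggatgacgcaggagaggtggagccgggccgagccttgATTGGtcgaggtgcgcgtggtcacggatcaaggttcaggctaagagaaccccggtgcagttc
Insig2: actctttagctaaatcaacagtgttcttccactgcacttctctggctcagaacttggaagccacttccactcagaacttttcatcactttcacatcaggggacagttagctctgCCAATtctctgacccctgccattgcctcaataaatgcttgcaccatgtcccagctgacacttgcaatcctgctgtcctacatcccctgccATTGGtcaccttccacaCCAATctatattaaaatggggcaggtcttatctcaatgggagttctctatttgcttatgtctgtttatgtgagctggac
Hmgcs1: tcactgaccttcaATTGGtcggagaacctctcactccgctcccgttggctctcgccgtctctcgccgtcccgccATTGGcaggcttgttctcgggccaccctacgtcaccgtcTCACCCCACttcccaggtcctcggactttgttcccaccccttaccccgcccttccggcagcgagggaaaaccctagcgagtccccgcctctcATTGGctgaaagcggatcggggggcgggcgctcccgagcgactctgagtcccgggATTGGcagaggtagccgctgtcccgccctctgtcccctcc
Mvd: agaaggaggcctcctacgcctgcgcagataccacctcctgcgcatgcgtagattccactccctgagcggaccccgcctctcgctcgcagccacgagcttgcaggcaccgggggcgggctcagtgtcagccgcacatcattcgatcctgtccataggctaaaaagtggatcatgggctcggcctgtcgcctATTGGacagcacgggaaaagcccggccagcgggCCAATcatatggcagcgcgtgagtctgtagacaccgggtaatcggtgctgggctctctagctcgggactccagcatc

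TCACNCCAC, searched on both strands, was found in 1 of the 23 members, Hmgcs1, at 137 bases before the start, and in 1.44% of all 27025 genes with an entry. CCAAT stood in 20 of the 23 members (87%) and in 41.1% of all genes. The Sp1 box GGGCGG stood in 21 of 23 members (91.3%) and in 38.2% of all genes, and the E-box CACGTG in 6 of 23 (26.1%) and 8.09%. Pairs of the vitamin D half-sites GGTCA and GTTCA, in any of 4 direct orders and NNNN apart, were in no member's window and in 0.189% of all genes. With so few genes matching, their absence from 23 members says little about those members. Dhcr7 had CCAAT at 85 and 49 bases before that last start, and none in the windows of its other starts, while Hsd17b7 had it 165, 73 and 12 bases before the start. Insig2 likewise had CCAAT only in the window of its first listed start. Which starts are used in these cells was not tested. All motif hits given here are matches of letters in short windows, not sites of binding. A missing match does not show that a gene lacks such a site, in the window or outside it.

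The first comparison asked what 25(OH)D did to the pathway. Dhcr7 rose most of all members, Hsd17b7, Insig2, Fdft1 and Pmvk rose with it, and Mvd, Stard4, Acat2, Cyp51 and Srebf2 fell. So 10 of 26 tested members passed an adjusted p of 0.05 by edgeR's quasi-likelihood test (38.5%), where 8.68% of all 14394 tested genes did. By direction, 5 were higher (4.76% of all genes) and 5 lower (3.93%). The 3 libraries of each group did not overlap for 16 of 26 members, 6 above and 10 below control, against 21.9% of all genes (11.1% above and 10.8% below).

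**Figure D1:**
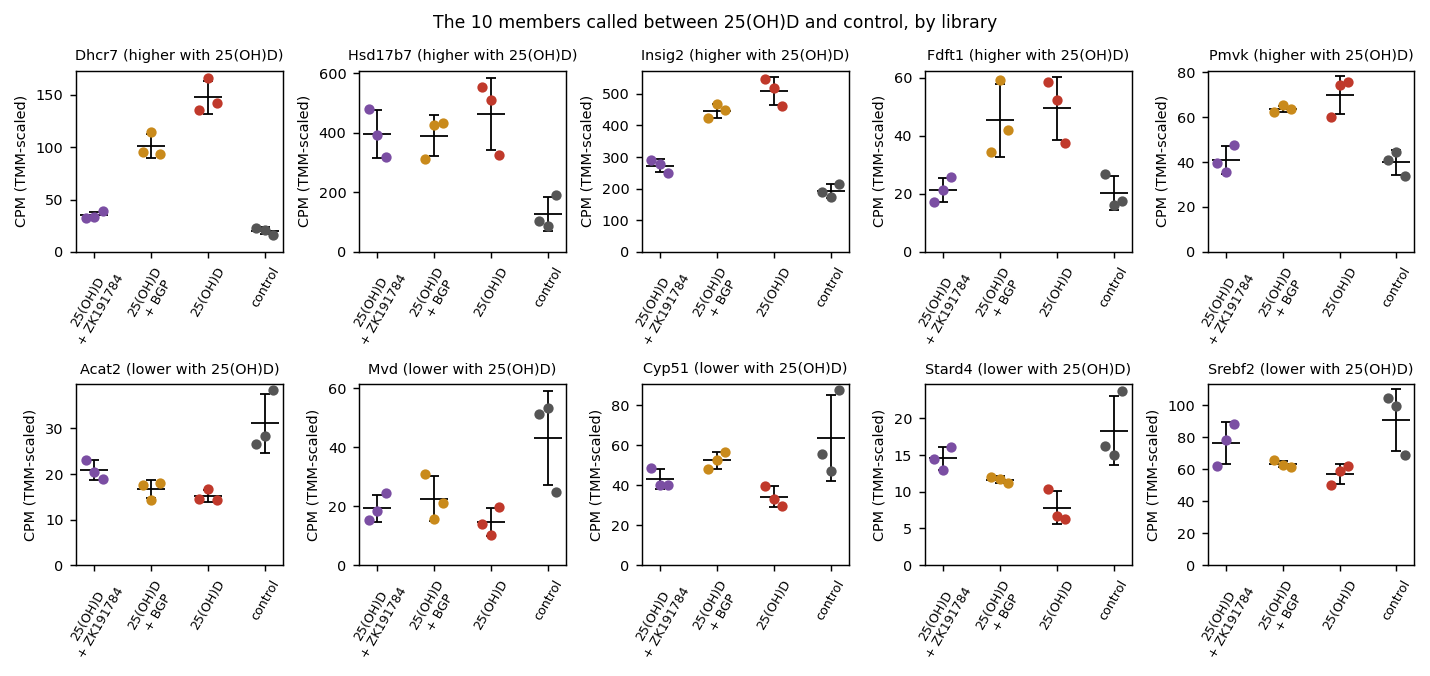
TMM-scaled CPM of the 10 members called between 25(OH)D and control, 1 panel a gene, with 1 point a library and the mean ± SD of each group (n = 3) as lines. In the upper row all 25(OH)D points lie above all control points, with Dhcr7 at 148 against 20.001 CPM on average, and in the lower row they lie below them.

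Among the late enzymes, Dhcr7, whose product makes cholesterol from 7-dehydrocholesterol, had 135, 166 and 142 CPM with 25(OH)D, against 22.5, 21.3 and 16.2 CPM in control. The lowest 25(OH)D library was far above the highest control library. The means were 148 ± 16.05 and 20.001 ± 3.37 CPM (SD, n = 3 each), a 7.36-fold rise with a log2 fold change of 2.88 ± 0.18 (SE) and an adjusted p of 6.31e-07 by edgeR. It ranked 22 by p and 119 by fold change among all tested genes. Hsd17b7, the keto-reductase of C4 demethylation, had 553, 509 and 326 CPM with 25(OH)D, against 105, 85.6 and 192 CPM in control. Its groups did not overlap, though the lowest 25(OH)D library and the highest control library were each the odd one of their group. The rise was 3.63-fold (log2 1.86 ± 0.30, adjusted p = 0.00154).

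Cyp51, the lanosterol demethylase, fell. It had 39.8, 33.3 and 29.8 CPM with 25(OH)D, against 55.6, 47.0 and 87.8 CPM in control, with the groups apart and one control library well above the others. Its log2 fold change was −0.89 ± 0.22 (adjusted p = 0.0264), and the call was lost in 5 of 13 alternatives, among them leaving out control library 3 (adjusted p = 0.0771). Cyp51 overlaps Akap9 on the opposite strand in GENCODE M21. Akap9 had 97.9 ± 11.2 CPM with 25(OH)D and 83.1 ± 22.5 CPM in control.

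The other 7 tested late enzymes did not pass the test. Ebp, the sterol isomerase, and Msmo1, the C4 methyl oxidase, came nearest, with log2 fold changes of −0.86 ± 0.25 (adjusted p = 0.0544) and −0.997 ± 0.30 (adjusted p = 0.0617) by edgeR and libraries all below control. Ebp had 67.7, 68.0 and 38.8 CPM with 25(OH)D, against 80.1, 105 and 132 CPM in control. Sqle (squalene epoxidase), Lss (lanosterol synthase), Lbr (a sterol reductase that is also the lamin B receptor), Nsdhl (a C4 decarboxylating dehydrogenase) and Sc5d (the sterol desaturase just before DHCR7) had log2 fold changes from −0.43 to 0.05, each with overlapping groups. Tm7sf2, a second sterol reductase, had 18 counts over the 25(OH)D libraries and 26 over control, too few for the fit (exact permutation test of CPM, 2-sided p = 0.7, where 3 against 3 libraries cannot go below 0.1). Tm7sf2 overlaps Vps51 on the same strand in GENCODE M21, with 79 and 594 counts over all libraries. The part of that overlap in its low counts was not tested.

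Early enzymes went both ways. Acat2, which joins 2 acetyl-CoA, had 14.4, 16.6 and 14.3 CPM with 25(OH)D, against 26.6, 28.2 and 38.5 CPM in control, with no overlap. It fell by 1.04 ± 0.21 on the log2 scale (adjusted p = 0.00650 by edgeR) and passed in all 13 alternatives. Mvd, which decarboxylates diphosphomevalonate, had 13.9, 10.4 and 19.8 CPM with 25(OH)D, against 51.3, 53.1 and 24.7 CPM in control. The groups were apart, but control library 3 lay much nearer to the 25(OH)D libraries than to the other control libraries. Its log2 fold change was −1.55 ± 0.36 (adjusted p = 0.0154), and the call was lost in 5 of 13 alternatives, with adjusted p up to 0.100.

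Pmvk, phosphomevalonate kinase, had 60.2, 74.2 and 75.5 CPM with 25(OH)D, against 40.8, 44.7 and 34.0 CPM in control. All 25(OH)D libraries were above all control libraries, and the rise was 1.76-fold (log2 0.81 ± 0.17, adjusted p = 0.00782 by edgeR). Fdft1, squalene synthase, had 58.3, 52.3 and 37.5 CPM with 25(OH)D, against 26.9, 16.2 and 17.4 CPM in control. The groups did not overlap, and the rise was 2.45-fold (log2 1.29 ± 0.28, adjusted p = 0.00967).

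Fdft1 shares exonic sequence on the opposite strand with Ctsb, the gene of the lysosomal protease cathepsin B, in GENCODE M21, and the strand setting of the counting is not given in the sources used here. Ctsb had 1052 ± 138 CPM with 25(OH)D and 194 ± 19.6 CPM in control (SD, n = 3 each), a log2 fold change of 2.44 ± 0.21 (adjusted p = 1.05e-05 by edgeR). With ZK191784 added, Ctsb had 343 ± 62.8 CPM, against 1052 ± 138 CPM with 25(OH)D alone (log2 −1.62 ± 0.20, adjusted p = 0.000702). Reads of Ctsb counted for Fdft1 cannot be told apart from its own, and the part of Ctsb in the Fdft1 result was not tested. In all, 11 of the 28 members overlap exons of another gene, 9 of them on the opposite strand, among them Ggps1 with Arid4b and Npc1 with Rmc1.

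Of the other early enzymes, Fdps, farnesyl diphosphate synthase and the target of nitrogen bisphosphonates, had 3.74, 2.65 and 4.23 CPM with 25(OH)D, against 7.43, 9.91 and 7.14 CPM in control. Its groups were apart at these low levels, but its log2 fold change of −1.20 ± 0.38 missed the threshold (adjusted p = 0.0775 by edgeR). Hmgcs1 (cytosolic HMG-CoA synthase) and Mvk (mevalonate kinase) had log2 fold changes of −0.68 ± 0.27 and −0.78 ± 0.34 with overlapping groups. Ggps1, which makes geranylgeranyl diphosphate for protein prenylation, had 0.17 ± 0.15. Idi1, the isopentenyl diphosphate isomerase, had only 15 counts over the 25(OH)D libraries and 24 over control (exact permutation p = 0.2), and its pseudogenes Idi1-ps1 and Idi1-ps3 held 118 and 137 counts over all 12 libraries, so its level is uncertain.

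In the control arm of the pathway, Insig2 rose. It had 548, 520 and 461 CPM with 25(OH)D, against 188, 173 and 216 CPM in control, with every 25(OH)D library above every control library. The means were 510 ± 44.4 and 192 ± 22.04 CPM (SD, n = 3 each), a 2.65-fold rise (log2 1.41 ± 0.13, adjusted p = 2.44e-05 by edgeR). Its relative Insig1, itself an SREBP target, had 11.2, 9.64 and 10.6 CPM with 25(OH)D, against 12.0, 12.4 and 13.3 CPM in control, and a log2 fold change of −0.26 ± 0.21 (adjusted p = 0.553). The count ratio of Insig2 to Insig1, chosen after the values were seen, was 48.8, 53.9 and 43.7 with 25(OH)D, against 15.7, 13.9 and 16.2 in control.

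Srebf2, the gene of SREBP2, had 50.3, 58.8 and 61.8 CPM with 25(OH)D, against 104, 99.5 and 68.5 CPM in control. The groups were apart by a narrow gap between 25(OH)D library 3 and control library 3. It fell by 0.67 ± 0.19 on the log2 scale (adjusted p = 0.0419 by edgeR), a call lost in 9 of 13 alternatives with adjusted p up to 0.166. Stard4, a cytosolic sterol carrier, had 10.4, 6.75 and 6.34 CPM with 25(OH)D, against 16.3, 14.96 and 23.8 CPM in control. Its groups were apart and it fell by 1.23 ± 0.27 (adjusted p = 0.0110 by edgeR). That call was lost in 2 of 13 alternatives, the 2 groups alone (adjusted p = 0.0770) and leaving out 25(OH)D library 2 (0.0659). Mylip, the ubiquitin ligase IDOL, had a log2 fold change of −0.63 ± 0.22 (adjusted p = 0.110). Scap had 0.43 ± 0.23, Npc1, which exports cholesterol from lysosomes, 0.36 ± 0.25, and Abca1, the efflux transporter, 0.22 ± 0.27, none of them called.

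The same 5 members were called higher in 12 of the 13 alternatives, and all but Pmvk in a fit of these 2 groups alone (adjusted p = 0.0566 for Pmvk). The number called lower moved with the fit. With the library ratio described above as a covariate 11 members were called lower, and with DESeq2 8, against 5 in the fit without it. Over all genes the lower calls went up too, with 1393 under the covariate and 725 by DESeq2, against 565. Fitting the 25(OH)D and control libraries alone left Acat2 as the only member called lower. Leaving out 25(OH)D library 2 also left only Acat2.

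**Figure D2:**
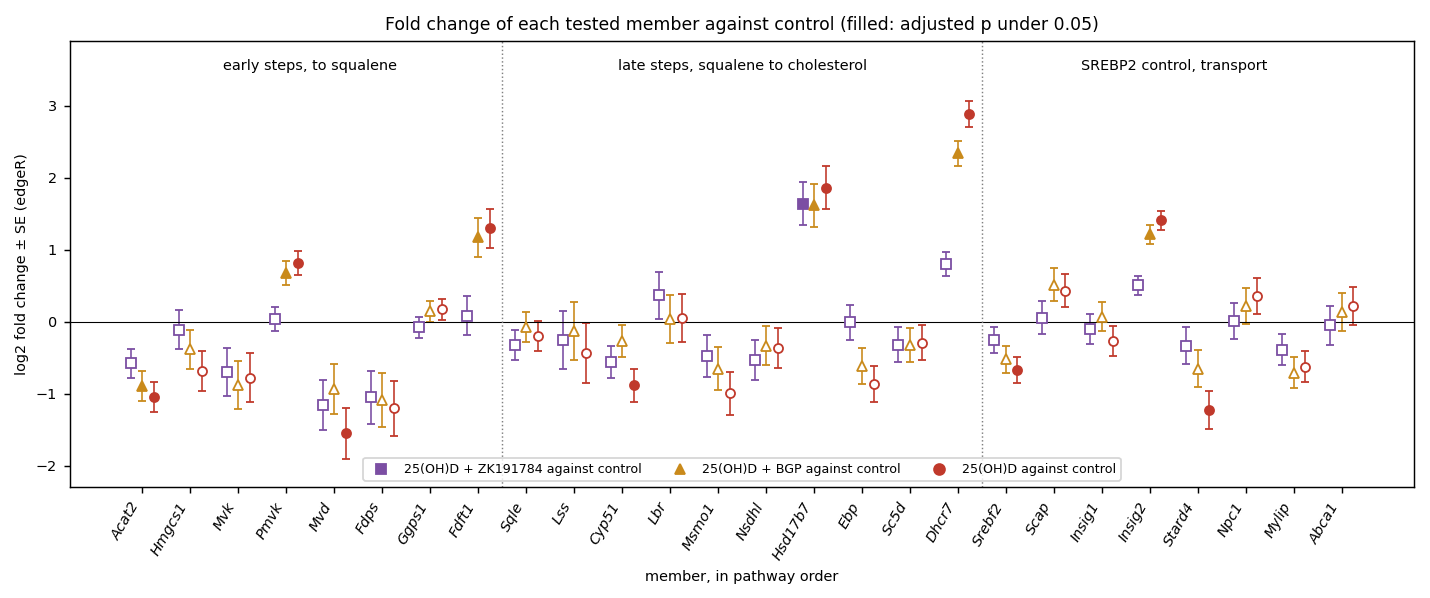
Fitted log2 fold changes against control (± SE) of the 26 tested members in pathway order, for 25(OH)D + ZK191784, 25(OH)D + BGP and 25(OH)D, with filled symbols at an adjusted p under 0.05. All 3 comparisons share the control libraries. Dhcr7 stands at 0.80 with ZK191784, 2.34 with BGP and 2.88 with 25(OH)D alone, and Hsd17b7 at 1.64 with ZK191784, 1.62 with BGP and 1.86 with 25(OH)D alone.

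Early and late steps were set side by side. The median log2 fold change with 25(OH)D was −0.73 over 8 tested early enzymes, with 2 called higher and 2 lower, and −0.33 over 10 tested late enzymes, with 2 higher and 1 lower. It was −0.37 over the late enzymes without Dhcr7, −0.02 over the 8 genes of control, uptake and efflux, and −0.05 over all genes tested. By library, the early enzymes had a median difference from the control mean of −0.27, −0.62 and −0.90 with 25(OH)D, against 0.04, 0.01 and −0.17 in control. The late enzymes without Dhcr7 had −0.43, −0.19 and −0.70 with 25(OH)D, against −0.14, −0.10 and 0.29 in control. Neither set's groups overlapped, and the 2 sets covered much the same range. For the late enzymes the gap was narrow, between −0.19 in 25(OH)D library 2 and −0.14 in control library 1. Dhcr7 had 2.74, 3.03 and 2.81 with 25(OH)D, above the medians of both sets. Single members also lay above these medians in every 25(OH)D library. Among them were Hsd17b7 (2.20, 2.08 and 1.44), Insig2 (1.51, 1.44 and 1.27), Fdft1 (1.55, 1.39 and 0.92) and Pmvk (0.60, 0.90 and 0.92). The median log2 fold change over the 25 tested members other than Dhcr7 was −0.37.

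**Figure D3:**
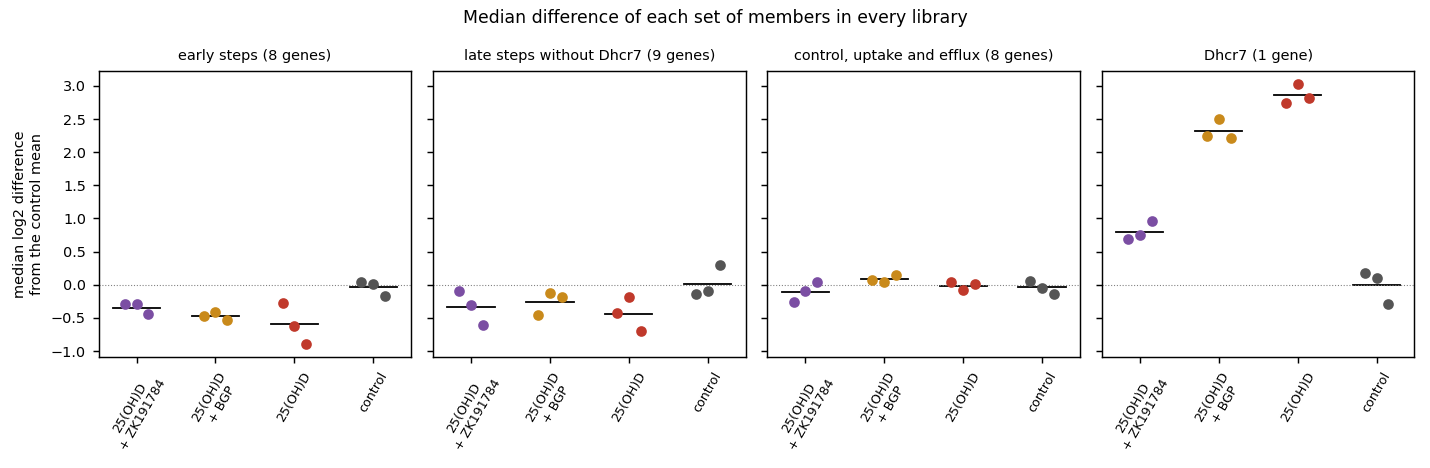
Median log2 difference from the control mean of the early enzymes, the late enzymes without Dhcr7, the genes of control, uptake and efflux, and Dhcr7 alone, with 1 point a library and the group mean as a line. Dhcr7 lay between 2.74 and 3.03 in the 25(OH)D libraries, where the medians of the early enzymes lay between −0.90 and −0.27.

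The second comparison asked whether more phosphate donor altered the response to 25(OH)D. No member was called between 25(OH)D + BGP and 25(OH)D by edgeR, nor by DESeq2, and 0% of the 14394 genes were called by either. At an unadjusted p under 0.05 there were 2 members by edgeR, where 268 of all genes (1.86%) were. Dhcr7 was one of the 2, with 95.6, 114 and 93.3 CPM with BGP, against 135, 166 and 142 CPM with 25(OH)D alone. All BGP libraries were below all libraries of 25(OH)D alone, with a log2 difference of −0.54 ± 0.16 (unadjusted p = 0.00534, adjusted p = 1.00 by edgeR). Cyp51 was the other, with 48.2, 52.5 and 56.7 CPM with BGP, against 39.8, 33.3 and 29.8 CPM with 25(OH)D alone (log2 0.61 ± 0.22, unadjusted p = 0.0176, adjusted p = 1.00). The groups were apart for 4 members, 3 above (Cyp51, Insig1 and Stard4) and 1 below, against 6.04% of all genes (2.38% above and 3.66% below).

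Against control, 25(OH)D + BGP gave 5 higher members and 1 lower, where 8.25% of all genes were called (3.9% higher and 4.35% lower). Higher were Dhcr7 (log2 2.34 ± 0.17, adjusted p = 3.87e-06 by edgeR), Hsd17b7 (1.62 ± 0.30, 0.00416), Insig2 (1.21 ± 0.13, 8.01e-05), Fdft1 (1.17 ± 0.27, 0.0177) and Pmvk (0.68 ± 0.17, 0.0235). Lower was Acat2 (−0.90 ± 0.21, 0.0156). The groups were apart for 6 members above and 7 below (9.73 and 11.2% of all genes). Cyp51, with 48.2 to 56.7 CPM in the BGP libraries and 47.0 to 87.8 CPM in control, was not called (−0.27 ± 0.22, 0.633). Mylip had 20.2, 16.5 and 17.2 CPM with BGP, against 30.7, 33.9 and 23.1 CPM in control, and missed the threshold (−0.71 ± 0.22, 0.0702). The call of Pmvk was lost in 7 of 13 alternatives, among them leaving out any 1 BGP library or control library 1 or 3, with adjusted p up to 0.0732. Those of Acat2 and Fdft1 were lost in 4 of 13 each, among them leaving out BGP library 2 (adjusted p of 0.0829 and 0.0738), control library 3 for Acat2 (0.0688) and control library 2 for Fdft1 (0.0616).

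The last main comparison addressed the effect of adding ZK191784 to 25(OH)D. Dhcr7, Insig2, Fdft1 and Pmvk, all of them among the members that 25(OH)D raised, fell when ZK191784 was added, and Hsd17b7 was not called. So 4 of 26 members were called (15.4%), all lower, where 3.53% of all genes were called and 2.11% were lower. No member was called higher by edgeR (1.42% of all genes), while DESeq2 called 1, Ebp. At an unadjusted p under 0.05 there were 8 members by edgeR, 4 of them higher (11.4% of all genes in either direction). The groups were apart for 13 members (17.6% of all genes), 6 above (8.57%) and 7 below (9.02%). The comparison shares its 25(OH)D libraries with the first.

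Dhcr7 had 32.1, 33.7 and 38.9 CPM with ZK191784, against 135, 166 and 142 CPM with 25(OH)D alone. The ZK191784 libraries lay close together and well below, with means of 34.9 ± 3.54 and 148 ± 16.05 CPM (SD, n = 3 each), a log2 fold change of −2.08 ± 0.17 and an adjusted p of 2.54e-05 by edgeR. Insig2 had 290, 277 and 251 CPM with ZK191784, against 548, 520 and 461 CPM with 25(OH)D alone, also without overlap (−0.90 ± 0.13, adjusted p = 0.00167). These 2 calls held in all 13 alternatives.

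Pmvk had 39.7, 35.4 and 47.8 CPM with ZK191784, against 60.2, 74.2 and 75.5 CPM with 25(OH)D alone (log2 −0.77 ± 0.17, adjusted p = 0.0217 by edgeR). Fdft1 had 17.2, 21.2 and 25.7 CPM with ZK191784, against 58.3, 52.3 and 37.5 CPM with 25(OH)D alone (−1.21 ± 0.27, adjusted p = 0.0281), with Ctsb lower as given above. Both genes had groups apart, and each call was lost in 6 of 13 alternatives, among them leaving out 25(OH)D library 2 (adjusted p = 0.118 for Pmvk and 0.117 for Fdft1), ZK191784 library 1 (0.113 and 0.124) or ZK191784 library 2 (0.129 and 0.123).

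Hsd17b7 had 480, 391 and 318 CPM with ZK191784, against 553, 509 and 326 CPM with 25(OH)D alone. The groups overlapped widely (log2 −0.22 ± 0.29, adjusted p = 0.929 by edgeR). The count ratio of Dhcr7 to Hsd17b7, chosen after the values were seen, was 0.0670, 0.0862 and 0.122 with ZK191784, against 0.244, 0.325 and 0.435 with 25(OH)D alone. That ratio was 0.215, 0.249 and 0.0844 in control.

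Members that 25(OH)D had lowered were not called with ZK191784. Acat2 (log2 0.46 ± 0.21), Cyp51 (0.32 ± 0.22), Srebf2 (0.42 ± 0.19) and Stard4 (0.89 ± 0.27) each had all ZK191784 libraries above all libraries of 25(OH)D alone, with adjusted p from 0.109 to 0.743 by edgeR. Mvd overlapped (0.40 ± 0.36). Ebp had 115, 105 and 93.9 CPM with ZK191784, against 67.7, 68.0 and 38.8 CPM with 25(OH)D alone (0.85 ± 0.25, adjusted p = 0.105). With the library ratio as a covariate, Ebp, Hmgcs1, Srebf2 and Stard4 were called higher, where higher calls over all genes numbered 782, against 205 without the covariate.

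Against control, 25(OH)D + ZK191784 gave 1 called member, Hsd17b7, where 0.723% of all genes were called (0.507% higher and 0.215% lower). At an unadjusted p under 0.05 there were 7 members, where 6.67% of all genes were, and DESeq2 called 3 higher and 0 lower. The groups were apart for 3 members above and 6 below (5.91 and 5.86% of all genes). Hsd17b7 averaged 396 ± 81.1 CPM with ZK191784 and 127 ± 56.5 CPM in control (SD, n = 3 each; log2 1.64 ± 0.30, adjusted p = 0.0269 by edgeR). Leaving out control library 1 or 2 ended that call (adjusted p of 0.156 and 0.132), as did leaving out ZK191784 library 1 or 2 (0.106 and 0.115). Dhcr7, with 32.1 to 38.9 CPM in the ZK191784 libraries and 16.2 to 22.5 CPM in control, did not overlap and stood at the edge of the threshold (0.80 ± 0.17, adjusted p = 0.0589, called in 5 of 13 alternatives). Insig2 had 251 to 290 CPM with ZK191784 and 173 to 216 CPM in control, also apart (0.50 ± 0.13, adjusted p = 0.154). Pmvk and Fdft1 had log2 fold changes of 0.04 ± 0.17 and 0.08 ± 0.28. Mvd, with 15.4, 18.3 and 24.4 CPM with ZK191784, against 51.3, 53.1 and 24.7 CPM in control, was not called (−1.15 ± 0.35, adjusted p = 0.275).

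**Figure D4:**
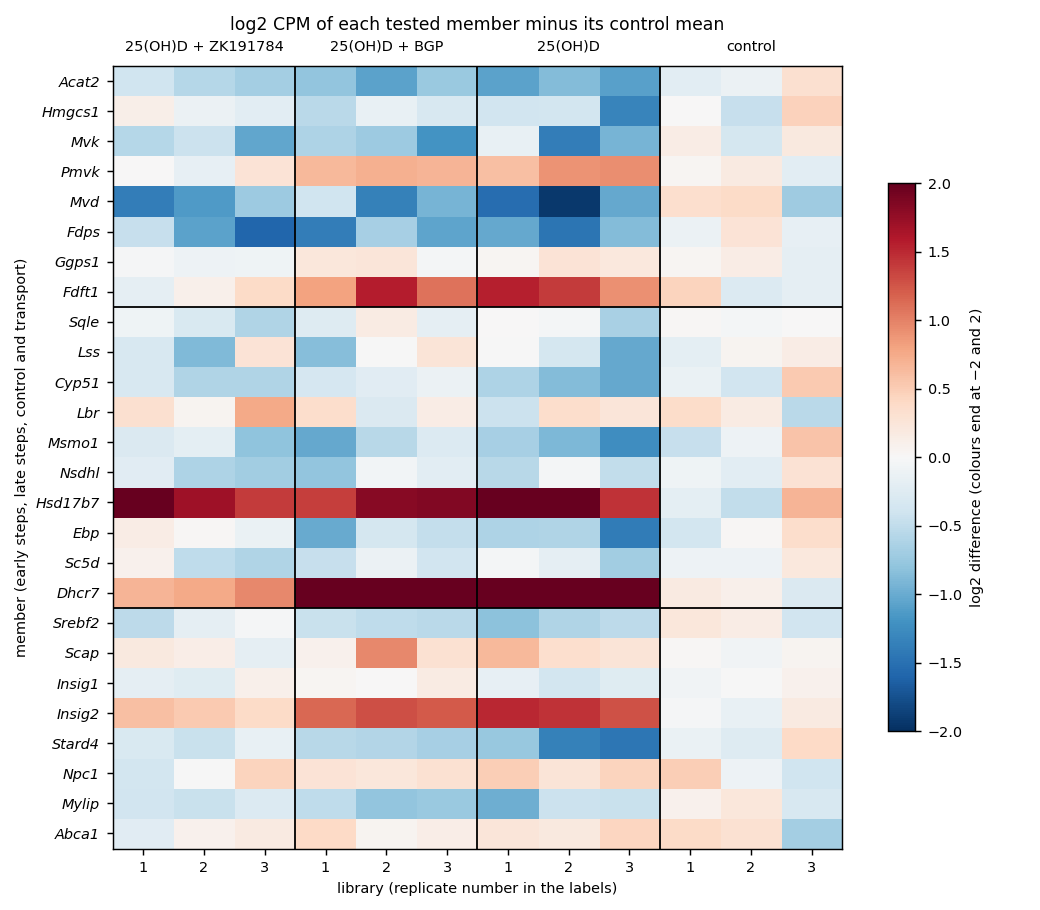
log2 CPM of each tested member minus its control mean, with members in rows (early steps, late steps, control and transport) and the 12 libraries in columns, red above and blue below the control mean. Dhcr7 and Insig2 are paler in the ZK191784 libraries than with 25(OH)D alone, at 34.9 against 148 CPM and 273 against 510 CPM on average, while Hsd17b7 is dark in all 3 groups given 25(OH)D.

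Over the 12 libraries, the genes most like Dhcr7 in log2 CPM were St13, a co-chaperone of Hsp70, with a Pearson correlation of 0.991, C3, the complement component, with 0.989, and St3gal2, a sialyltransferase, with 0.989. Of the members, Insig2 (0.962), Pmvk (0.937) and Fdft1 (0.905) were most like it, and Acat2 (−0.917) and Stard4 (−0.872) ran most against it. The 12 points are 4 groups of 3 libraries, so these values describe the group differences already given.

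Other genes of sterol biology were read from 3 lists. Of 17 tested of 21 other enzymes of sterol synthesis and its branches, 2 rose with 25(OH)D and none fell, so 11.8% were called where 8.68% of all genes were (4.76% higher and 3.93% lower). They were Fdxr, the ferredoxin reductase that feeds mitochondrial P450 enzymes (log2 2.17 ± 0.16, adjusted p = 3.73e-06 by edgeR), and Por, the reductase that feeds CYP51 and other microsomal P450 enzymes (1.03 ± 0.14, adjusted p = 0.000527). Both fell when ZK191784 was added (Fdxr −0.72 ± 0.16, adjusted p = 0.0217; Por −0.70 ± 0.14, adjusted p = 0.0152). Of 16 genes of SREBP processing and sterol sensing, all tested, none rose and 1 fell (6.25%, against 8.68% of all genes), Tmem97, a sterol-binding protein of the endoplasmic reticulum (−1.54 ± 0.44, adjusted p = 0.0497). Of 18 tested of 22 genes of sterol transport, storage and efflux, 2 rose and 2 fell (22.2%, against 8.68% of all genes). Lrp1, a lipoprotein receptor, rose (1.41 ± 0.21, adjusted p = 0.000820), as did Soat1, which esterifies cholesterol (0.47 ± 0.13, adjusted p = 0.0399), and Vldlr, another lipoprotein receptor, fell (−1.06 ± 0.29, adjusted p = 0.0368). Lrp1 was lower when ZK191784 was added (−0.99 ± 0.21, adjusted p = 0.0179), and no gene of the 3 lists was called when BGP was added.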

How the data were processed

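RNA of 12 MC3T3-E1 libraries, 3 in each of 4 groups, was extracted with TRIzol and sequenced after a QuantSeq 3' library preparation, per the labels' protocols. The values are counts per gene as deposited by the authors. STAR 2.7.9a, featureCounts of Subread 2.0.3, the genome mm39 and DESeq2 1.38.2 are named in the submitters' processing notes, the last without its role. Whether counting used strand, which annotation it used and what was filtered is not given in the sources used here. A 3' method counts about 1 tag per transcript, so levels are not corrected for length.

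Of 56691 genes, 14394 passed filterByExpr in edgeR. Its minimum count of 10 is applied as a CPM cut-off that several libraries must reach, and its minimum total was 15 counts. One quasi-likelihood fit (edgeR 4.0.16, R 4.3.3, TMM, robust, 1 coefficient per group) covered all 12 libraries, and genes were called at a Benjamini-Hochberg adjusted p under 0.05 over all 14394. CPM are TMM-scaled. SE was approximated as the size of a log2 fold change over the square root of F. Members below the filter were compared by an exact permutation test. Alternatives were RLE scaling, DESeq2 1.42.0, no filter, the replicate number as a block, a stricter filter (3 libraries with a CPM of 2), the library ratio as a covariate, a fit of only the 2 groups compared, and fits without each library. For promoters RefSeq windows of GRCm38.p6 were searched on both strands. Exon overlaps come from GENCODE M21, used for names only. Plots used matplotlib 3.10.9 (Python 3.11.15).

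The members, lists and tests were chosen with earlier results of these data known. All 28 members are named. Members called in the comparison of 25(OH)D with control or of ZK191784 with 25(OH)D are given library by library, and of each list the called genes with the smallest p, at most 4. Ctsb, Akap9 and the Idi1 pseudogenes were named after their values were seen. One called gene of the lists is not reported here.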

Additional observations from a re-analysis of the deposited data

How the results depend on the processing

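Dhcr7 kept its direction and its side of the threshold in the 3 main comparisons under all 13 alternatives, and members called higher with 25(OH)D against control numbered 4 with the 2 groups alone and 5 otherwise. Of 130 pairs of gene and comparison 21 were called, and of their 273 values under an alternative 218 were still called and 55 were not. Of all 1690 such values 44 gained a call, no called value reversed, and 76 differed in sign with neither value called. With 25(OH)D against control, members called lower numbered 5, against 11 with the library ratio added as covariate, 8 with DESeq2, 1 with the 2 groups alone, and 1 to 5 on leaving out a library. With ZK191784 against 25(OH)D, members called higher numbered 0, against 1 with no filter, 4 with the covariate and 1 with DESeq2, and members called lower numbered 4, against 2 to 3 on leaving out a library. With BGP against control, members called higher numbered 5, against 3 with the 2 groups alone and 3 to 4 on leaving out a library, and members called lower numbered 1, against 10 with the covariate and 2 with DESeq2 (over all genes 626, against 1540 and 821), 0 with the 2 groups alone and 0 to 3 on leaving out a library. With ZK191784 against control, members called higher numbered 1, against 2 with RLE scaling, 2 with no filter, 2 with a CPM of 2 in 3 libraries, 3 with the covariate, 3 with DESeq2, 0 with the 2 groups alone and 0 to 1 on leaving out a library, and members called lower numbered 0, against 1 with no filter and 2 with the covariate. With 25(OH)D against control, the median of the early enzymes was −0.73, and −0.92 to −0.54 on leaving out a library. That of the late enzymes was −0.33, and −0.39 to −0.15. The median of the early enzymes with BGP against 25(OH)D was 0.04, and −0.0814 to 0.14 on leaving out a library. The median of the late enzymes with ZK191784 against 25(OH)D was 0.08, and −0.13 (without 25(OH)D library 3) to 0.22 on leaving out a library. Where fewer libraries were fitted there was less power by construction, and otherwise the cause was not tested.

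The main fit did not pair the libraries by replicate number. Of 18 pairs with the same number, 4 correlated above 0.1 in their deviations from the group means (from −0.706 to 0.612). Pairs with different numbers ran from −0.671 to 0.668. With 3 libraries a group that also differed in the library ratio, these values cannot decide whether the numbers mark a pairing. With the replicate number as a block, members called lower with 25(OH)D against control numbered 3, members called lower with ZK191784 against 25(OH)D 2, and members called higher against control 3 with BGP and 0 with ZK191784. Counts limit the rare members most, and nothing can be said of Idi1 and Tm7sf2 at this depth.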
